A study of Mus musculus with 6 samples.

Results

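Hepatocytes break down fatty acids by beta-oxidation, and the genes of that pathway were followed in livers of mice given the small molecule DDK, which the series title calls a limonoid, or vehicle. The set holds 36 genes of 22173 gene symbols in the deposited expression table, taken by symbol from a list of mitochondrial and peroxisomal beta-oxidation enzymes, acyl-CoA thioesterases, enzymes of ketone body metabolism and genes tied to peroxisomes or to PPARA. The table covers liver RNA-seq of 3 DDK mice and 3 vehicle mice, all wild type, from a study of steatohepatitis (MASH in the design text). Both groups ate the HFHC diet for 16 weeks from 6 weeks of age, with DDK or vehicle administered in the closing 4 weeks. Both abbreviations stand in the labels without expansion, and no group on another diet was analysed here, so every value describes DDK on top of HFHC feeding. The sources used here do not give dose, sex, strain or cage.

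Long-chain fatty acids enter mitochondria as carnitine esters, and each turn of beta-oxidation then shortens the chain through a dehydrogenation, a hydration, a second dehydrogenation and a thiolytic cut. The first dehydrogenation hands its electrons to the electron transfer flavoprotein and from there to ubiquinone. The liver turns much of the acetyl-CoA into ketone bodies for other tissues, while peroxisomes shorten very long and branched chains. In mouse liver the nuclear receptor PPARA drives many of these genes.

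Expression was in FPKM, fragments per kilobase of gene length and scaled to the total of the library. The length is that of the gene model the values were made with, which for Etfa (9685 bp) and Hadhb (4608 bp) is well above that of the main transcript in GENCODE M21 (1392 and 2048 bases), so levels of different genes can be set side by side only roughly. Behind the values stood 26576291 to 30237490 fragments in DDK libraries and 33963898 to 36105315 in vehicle libraries. Groups were compared by limma on log2(FPKM + 1) over 10681 genes, and a gene is said to rise or fall in DDK livers where its p, adjusted over all those genes, was under 0.05. Fold changes on the log2 scale are DDK over vehicle and carry ± SE, and means carry ± SD over the 3 livers of a group. Across the genes tested, the centre moved with the scaling, and the median log2 fold change stood at -0.23 on deposited FPKM and at 0.00 once libraries were put on median-ratio scaling. Summed hepatocyte markers stood at 92851 to 98560 FPKM in DDK livers and 57445 to 73669 FPKM in vehicle livers. Of 20 tested hepatocyte markers, 7 were higher (35%) and 3 lower (15%) in DDK, against 10.2% and 30.3% of all genes tested. Their median log2 fold change was only 0.08, and 10 of the 20 had a negative value, so the sum leans on the most abundant markers. Summed macrophage markers stood at 267 to 535 FPKM in DDK livers and 746 to 1183 FPKM in vehicle livers, with 13 of 19 markers lower (68.4%) and 0 higher. Stellate cell and fibroblast markers stood at 75.5 to 99.7 FPKM in DDK livers and 159 to 211 FPKM in vehicle livers. In bulk liver a smaller share of a cell type and less RNA per cell cannot be told apart, and the part of cell makeup in the results was not tested.

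DDK livers held lower transcript levels of most of the pathway than vehicle livers. All 36 genes passed the filter on low values, 21 fell, 2 rose and 13 did not pass the test. The share that fell was 58.3% against a background of 30.3% of all genes tested, and the share that rose was 5.56% against 10.2%, with 40.5% of all genes called in either direction. The median log2 fold change was -0.67 over the 36 genes and -0.23 over all genes tested. In 21 genes every DDK liver stood below every vehicle liver and in 2 every DDK liver stood above, against 39.2% and 14.1% of all genes tested. Together the 36 genes took 1.63% ± 0.032 of all fragments in DDK livers and 2.56% ± 0.125 in vehicle livers (SD, n = 3 each), with a counting error of at most 0.00542 percentage points per library (95% Wilson interval). This share leans on a few abundant genes. Acaa1b, Scp2 and Acaa2 held 36.9% to 40.2% of the summed FPKM of the set in DDK livers and 44.3% to 46.3% in vehicle livers.

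**Figure D1:**
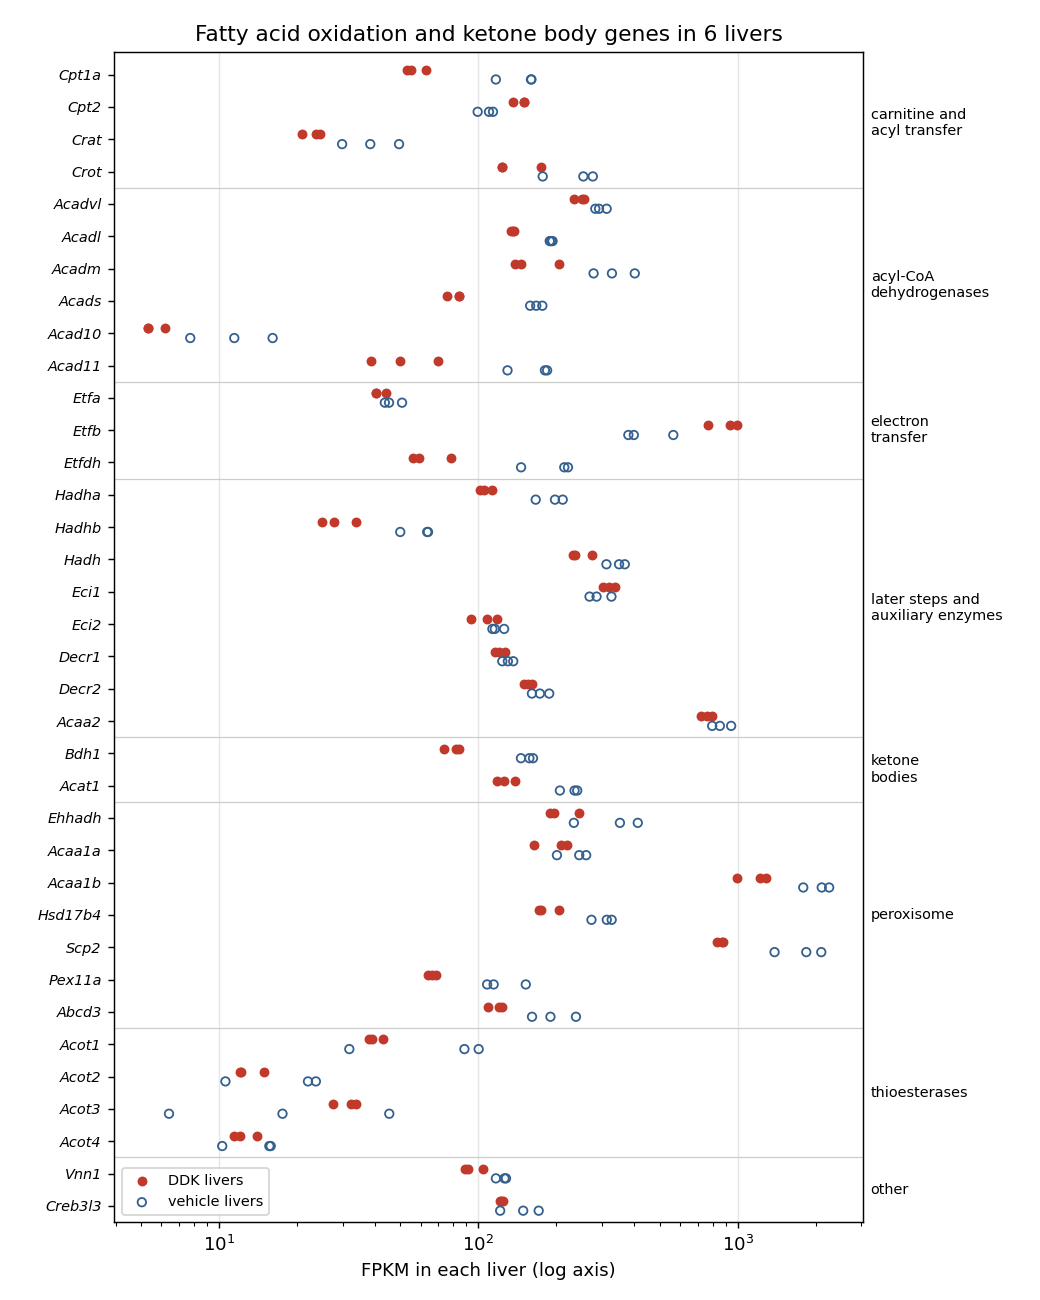
FPKM of the 36 genes in each liver on a log axis, grouped by role, with DDK livers as filled points above vehicle livers as open points. Acaa1b, Etfb, Scp2 and Acaa2 had the highest levels in DDK livers, with means of 1166, 898, 859.6 and 759.7 FPKM, and Acad10 the lowest at 5.64.

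The scaling of the libraries moved these counts. After median-ratio scaling, 12 of the 36 genes fell and 2 rose, against 15.4% of all genes lower and 18.4% higher. After rescaling to TPM, 30 fell and 1 rose, against 46.1% and 5.91%. After a correction for gene length, 17 fell and 2 rose, against 17.3% and 16.1%. The 36 genes had a median that lay -0.44 from the overall median on deposited FPKM, -0.36 with median-ratio scaling, -0.45 under TPM and -0.37 after length correction. Genes that rose were short in general, with a median length of 1554 bp, against 3538 bp for genes that fell and 3201 bp for all genes tested. The 36 genes had a median length of 2509 bp. The calls of 13 of the 23 genes held under all 20 other settings. They were those of Cpt1a, Acadm, Acads, Acad10, Acad11, Hadha, Hadhb, Etfdh, Scp2, Bdh1, Acat1 and Pex11a, all lower, and of Etfb, which was higher.

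**Figure D2:**
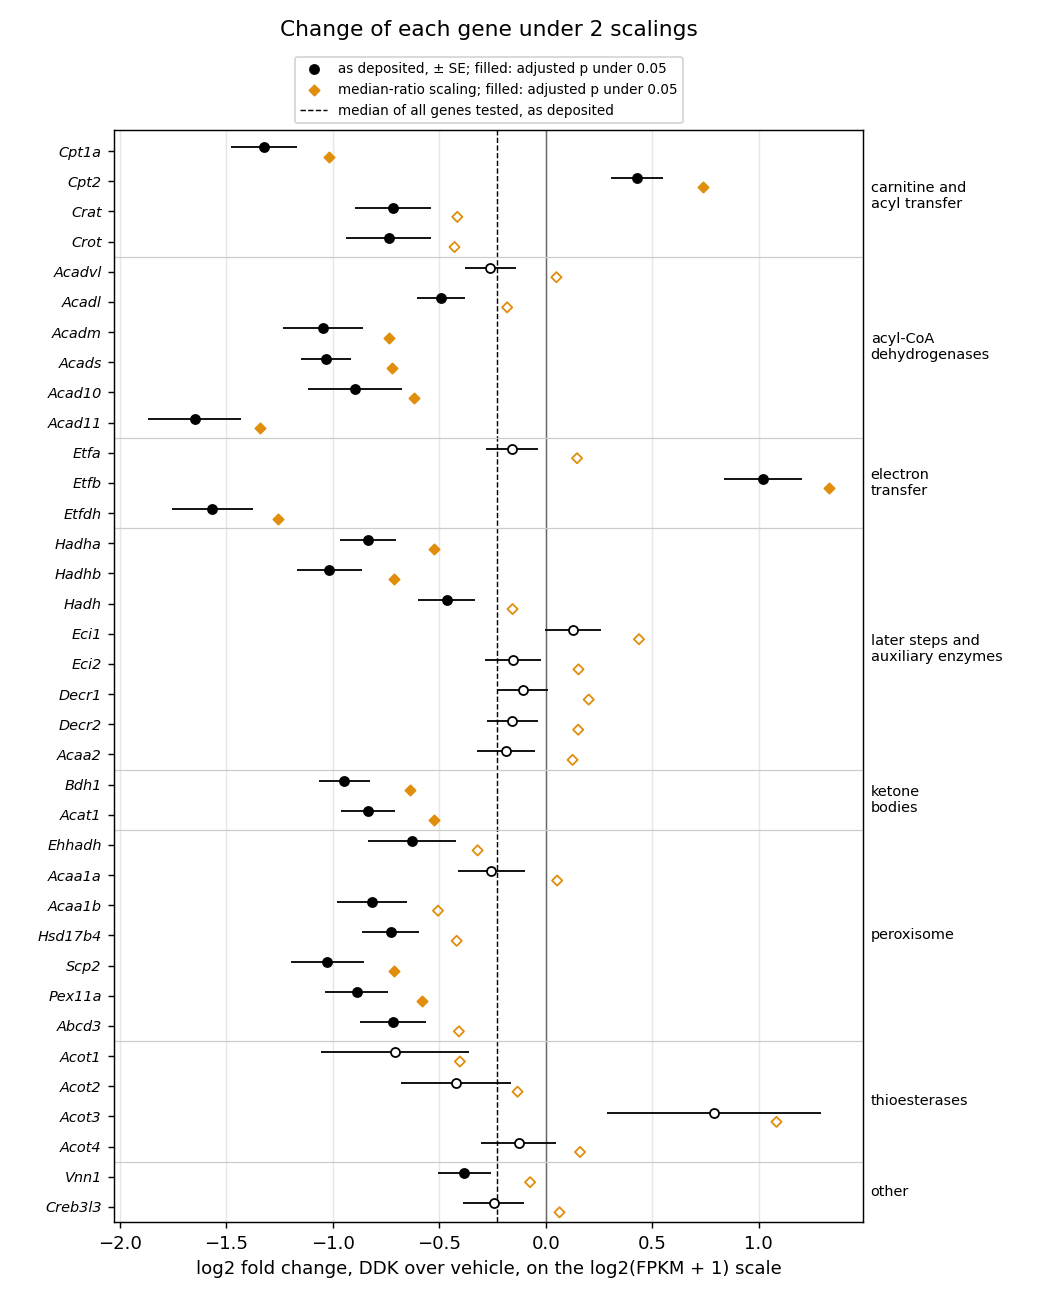
log2 fold change of each gene, DDK over vehicle, as deposited (circles, ± SE from limma) and after median-ratio scaling (diamonds), with filled symbols for an adjusted p under 0.05. The dashed line marks the median of all genes tested as deposited, -0.23; Etfb and Cpt2 are the filled circles right of 0, and Acad11 and Etfdh lie farthest left.

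Genes of carnitine-dependent transfer did not move together. Cpt1a, which encodes the rate-limiting carnitine palmitoyltransferase of the outer mitochondrial membrane in liver (chr19:3322334-3385733 on GRCm38), had 55.3, 53.1 and 63.1 FPKM in DDK livers, against 117, 160.3 and 159.7 FPKM in vehicle livers, in the order of replicates 1 to 3 as in all such lists here. The highest DDK liver was well below the lowest vehicle liver, and Cpt1a fell (log2 fold change -1.32 ± 0.15, adjusted p = 0.000698). Cpt2, the partner of the inner membrane (chr4:107903981-107923610), had 150.4, 150.5 and 136 FPKM in DDK livers, against 114, 99.5 and 110.0 FPKM in vehicle livers. It rose in DDK livers without overlap of the groups (log2 fold change 0.43 ± 0.12, adjusted p = 0.0201). The ratio of Cpt1a to Cpt2 within a library, which no scaling of whole libraries changes, was 0.368, 0.353 and 0.465 in DDK livers and 1.03, 1.61 and 1.45 in vehicle livers (two-sided exact permutation p = 0.1, the smallest that 3 against 3 allows). The call of Cpt2 ended under TPM (adjusted p = 0.178) and without DDK liver 1 (0.0804) or 2 (0.0832), or vehicle liver 2 (0.0757) or 3 (0.0607).

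Crat, the carnitine acetyltransferase that buffers acetyl-CoA, had 20.9, 23.7 and 24.6 FPKM in DDK livers, against 49.5, 29.9 and 38.3 FPKM in vehicle livers. Crot, the peroxisomal carnitine octanoyltransferase, had 123, 124 and 175 FPKM in DDK livers, against 177, 254 and 276 FPKM in vehicle livers. Both fell, Crat by 0.72 ± 0.18 on the log2 scale (adjusted p = 0.012) and Crot by 0.74 ± 0.20 (adjusted p = 0.017), although the highest DDK liver for Crot came close to vehicle replicate 1. Both calls ended after median-ratio scaling (adjusted p = 0.159 and 0.106) and length correction (0.176 and 0.0705), and that of Crot also without a filter on low values (0.0607) and without DDK liver 1 (0.0634) or 2 (0.0734), or vehicle liver 2 (0.0525) or 3 (0.0753).

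Acyl-CoA dehydrogenases, which carry out the first step of each turn, were lower, with 5 of 6 falling (83.3%, against 30.3% of all genes tested). They differ in the chain length they accept. Acadm, the medium-chain enzyme (chr3:153922357-153944632), had 138, 146 and 204 FPKM in DDK livers, against 278, 328 and 401 FPKM in vehicle livers, and fell by 1.05 ± 0.19 on the log2 scale (adjusted p = 0.00324). Acads, the short-chain enzyme (chr5:115110299-115119346), had 84.1, 75.98 and 84.1 FPKM in DDK livers, against 158, 167 and 177 FPKM in vehicle livers, with a narrow spread in both groups (log2 fold change -1.03 ± 0.12, adjusted p = 0.000685). Acadl, the long-chain enzyme, had 138, 133 and 136 FPKM in DDK livers, against 191, 189 and 193 FPKM in vehicle livers, and its fall was smaller (log2 fold change -0.49 ± 0.11, adjusted p = 0.00872). Acadvl, the very-long-chain enzyme of the inner membrane, had 252, 233 and 255 FPKM in DDK livers, against 313, 283 and 292 FPKM in vehicle livers. The groups did not overlap for Acadvl, yet it did not pass the test (log2 fold change -0.26 ± 0.12, adjusted p = 0.11) and stood at 0.05 after median-ratio scaling, while it passed after quantile normalization (adjusted p = 0.00916) and under TPM (0.00734). The call of Acadl ended after median-ratio scaling (0.355).

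The remaining members of the family, Acad10 and Acad11, differ from the classical enzymes. Acad11, which acts on long chains and on hydroxylated acids (chr9:104063377-104127725), had 50.1, 38.5 and 69.7 FPKM in DDK livers, against 129.6, 184 and 181 FPKM in vehicle livers. Its log2 fold change of -1.65 ± 0.22 was the lowest of the 36 genes (adjusted p = 0.00109). Vehicle replicate 1 stood below the other vehicle livers for this gene, and all 3 were above the DDK livers. On the other strand, Ackr4 shares 8.49% of the Acad11 stretches, and the library kit does not mark strand. Acad10, an acyl-CoA dehydrogenase with little known of its substrates in liver, was the least expressed gene of the set. It had 5.35, 6.20 and 5.35 FPKM in DDK livers, against 7.76, 11.5 and 16.1 FPKM in vehicle livers (log2 fold change -0.89 ± 0.22, adjusted p = 0.0115), from 577 to 2052 fragments per library. The neighbouring gene Acad12 shares 10.4% of the 100-base stretches of the main Acad10 transcript, and it fell too (log2 fold change -1.81 ± 0.29, adjusted p = 0.00215).

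The electron transfer flavoprotein chain split. Etfa and Etfb encode the alpha and beta subunits of the flavoprotein, a dimer, and Etfdh the membrane enzyme that passes its electrons to ubiquinone. Etfb (chr7:43444083-43457800) had 932, 990.0 and 772 FPKM in DDK livers, against 565, 379 and 398 FPKM in vehicle livers, and rose (log2 fold change 1.02 ± 0.18, adjusted p = 0.00321). Etfdh (chr3:79603788-79629500) had 59.04, 56.2 and 78.3 FPKM in DDK livers, against 146, 215 and 222 FPKM in vehicle livers, and fell (log2 fold change -1.57 ± 0.19, adjusted p = 0.000776). Etfa (chr9:55454508-55512243) had 40.5, 40.2 and 44.2 FPKM in DDK livers, against 45.3, 50.8 and 43.6 FPKM in vehicle livers. DDK replicate 3 and vehicle replicate 3 overlap for Etfa, which did not pass (log2 fold change -0.16 ± 0.12, adjusted p = 0.317) and changed sign with the scaling, to 0.15 after median-ratio scaling, while it passed as lower under TPM (-0.39, adjusted p = 0.0348).

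Ratios within a library show the split without any scaling of libraries. Etfb over Etfdh was 15.8, 17.6 and 9.85 in DDK livers, against 3.86, 1.77 and 1.79 in vehicle livers. Etfb over Etfa was 23.01, 24.6 and 17.5 in DDK livers, against 12.5, 7.45 and 9.12, and Etfa over Etfdh was 0.686, 0.715 and 0.564, against 0.310, 0.237 and 0.197. None of these 3 ratios overlapped between the groups (two-sided exact permutation p = 0.1 each, the smallest possible, and 0.16 adjusted over the 8 ratios computed, which were chosen after the values were seen). DDK replicate 3 was the DDK liver nearest to vehicle for Etfb and Etfdh, and vehicle replicate 1 the vehicle liver nearest to DDK. Gene length differed among the 3 genes, 904 bp for Etfb, 2281 bp for Etfdh and 9685 bp for Etfa. After length correction the log2 fold changes were 0.73 for Etfb, -1.37 for Etfdh and 0.12 for Etfa. These lengths scale the level of each gene, so the ratios compare livers and not subunit amounts. Gm45233, a gene model of GENCODE M21 that overlaps the Etfb locus, shares 65.2% of the 100-base stretches of the Etfb transcript, and how such fragments were counted is not stated, so the level of Etfb is uncertain.

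The promoters of these oppositely moving partners are shown because their transcripts moved in opposite directions. Each is the RefSeq window of GRCm38.p6 from 250 bases before to 50 bases after the start of the gene in RefSeq. It is written 5′ to 3′ on the gene's strand, and capitals mark CCAAT and GGGCGG on either strand. The Etfb window lies at chr7:43443822-43444121, plus strand, and that of Etfdh at chr3:79628718-79629017, minus strand. The RefSeq start of Etfdh, 79628767, lies inside the GENCODE M21 gene, which starts at 79629500 on that strand, so its window lies wholly within the gene as given above.
Etfb: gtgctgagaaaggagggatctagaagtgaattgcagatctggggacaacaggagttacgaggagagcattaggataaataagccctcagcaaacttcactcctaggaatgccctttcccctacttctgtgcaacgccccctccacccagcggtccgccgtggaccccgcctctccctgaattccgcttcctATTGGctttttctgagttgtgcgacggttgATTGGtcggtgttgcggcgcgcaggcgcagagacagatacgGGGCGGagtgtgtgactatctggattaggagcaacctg
Etfdh: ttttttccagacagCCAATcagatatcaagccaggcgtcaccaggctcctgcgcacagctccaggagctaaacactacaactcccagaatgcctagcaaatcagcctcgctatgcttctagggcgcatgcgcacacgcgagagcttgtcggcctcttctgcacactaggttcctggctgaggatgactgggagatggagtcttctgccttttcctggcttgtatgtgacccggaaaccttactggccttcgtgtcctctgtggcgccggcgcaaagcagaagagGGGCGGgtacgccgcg
The Etfb window holds CCAAT in 2 places, each on the reverse strand, and the Etfdh window in 1 place on the forward strand. Both hold GGGCGG in 1 place. CCAAT was found in 37.4% and GGGCGG in 35.7% of all 32851 promoter windows.

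**Figure D3:**
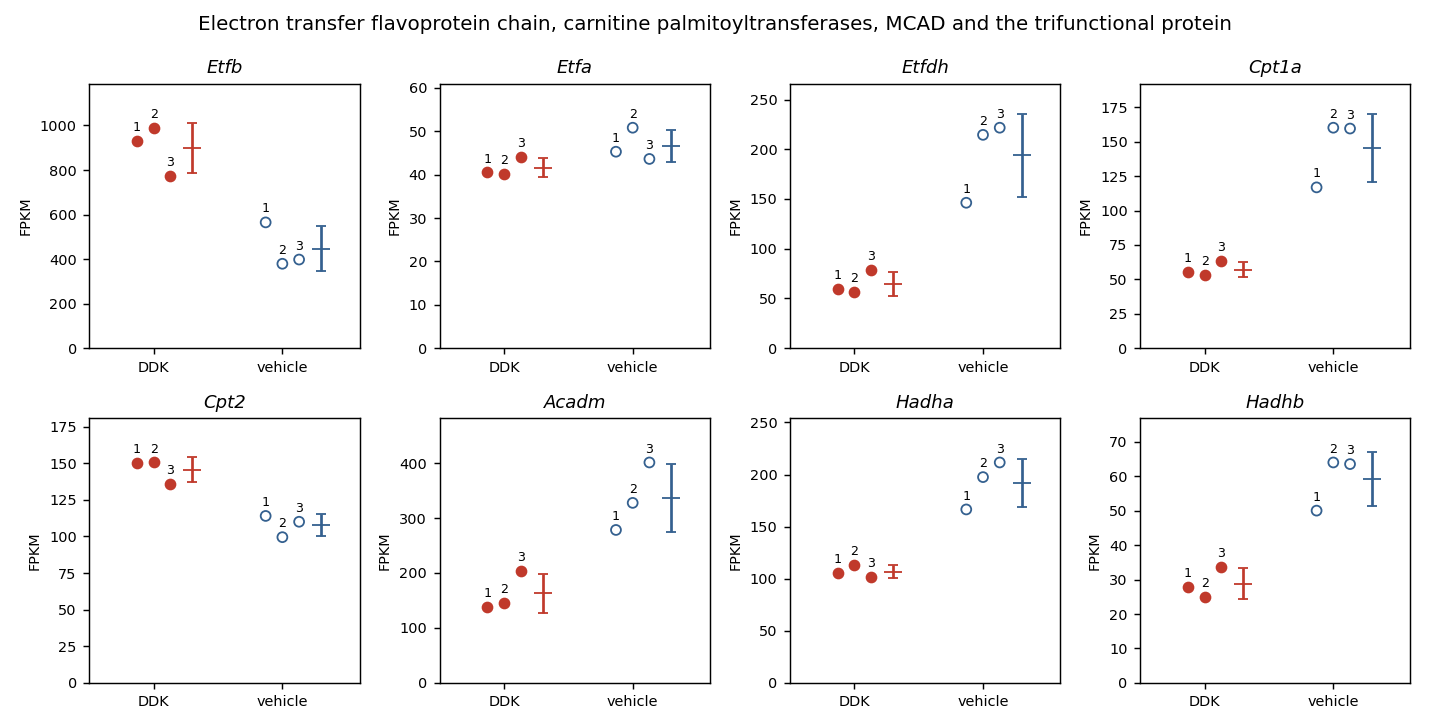
FPKM in each liver for the electron transfer genes, the carnitine palmitoyltransferases, Acadm and the trifunctional protein genes, with replicate numbers above the points and the mean ± SD of 3 livers beside them. Etfb and Cpt2 are higher in all 3 DDK livers than in any vehicle liver, Etfa overlaps, and the other 5 genes are lower in all 3 DDK livers.

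The trifunctional protein fell as a pair. Hadha and Hadhb encode its alpha and beta subunits, which carry out the last 3 steps of long-chain oxidation at the inner membrane. Hadha (chr5:30118304-30155162) had 106, 113 and 101 FPKM in DDK livers, against 166, 198 and 212 FPKM in vehicle livers, and fell by 0.83 ± 0.13 on the log2 scale (adjusted p = 0.00206). Hadhb (chr5:30155248-30184593) had 27.7, 24.97 and 33.8 FPKM in DDK livers, against 50.03, 64.01 and 63.5 FPKM in vehicle livers, and fell as well (log2 fold change -1.01 ± 0.15, adjusted p = 0.00181). The groups overlapped for neither gene. Hadha over Hadhb within a library was 3.80, 4.54 and 3.00 in DDK livers and 3.33, 3.09 and 3.33 in vehicle livers, and these overlapped (two-sided exact permutation p = 0.4). The processed pseudogene Gm13910 on chromosome 2 shares 52.8% of the 100-base stretches of the Hadhb transcript, and how such fragments were counted is not stated, so the level of Hadhb is uncertain.

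These genes lie head to head on chromosome 5, with 273 bp between their RefSeq starts, and their promoter windows share 228 bases. The Hadhb window, chr5:30155003-30155302, plus strand of GRCm38.p6, is shown because most of it lies in both windows, and capitals again mark CCAAT and GGGCGG on either strand.
Hadhb: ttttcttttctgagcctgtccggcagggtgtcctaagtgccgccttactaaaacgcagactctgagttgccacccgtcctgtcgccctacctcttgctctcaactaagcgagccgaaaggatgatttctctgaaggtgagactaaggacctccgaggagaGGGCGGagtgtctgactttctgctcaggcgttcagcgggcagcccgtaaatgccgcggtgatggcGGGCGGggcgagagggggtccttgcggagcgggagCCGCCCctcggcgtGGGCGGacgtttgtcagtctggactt
The window holds GGGCGG in 4 places and CCAAT in none. The first 228 bases belong to the Hadha window as well, on the other strand, and the GGGCGG there is the only match in the Hadha window.

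Of the other later-step and auxiliary enzymes, only Hadh passed the test. Hadh, the short-chain hydroxyacyl-CoA dehydrogenase, had 232, 237 and 275 FPKM in DDK livers, against 312, 349 and 367 FPKM in vehicle livers (log2 fold change -0.47 ± 0.13, adjusted p = 0.0212). Its call ended after median-ratio scaling (adjusted p = 0.45), without the 20 most abundant genes (0.088) and without DDK liver 1 (0.0891) or 2 (0.0887), or vehicle liver 2 (0.0622) or 3 (0.0874). Acaa2, the thiolase that ends each turn, averaged 759.7 ± 40.3 FPKM in DDK livers and 865 ± 73.8 FPKM in vehicle livers (log2 fold change -0.18 ± 0.14, adjusted p = 0.291). The enzymes that prepare unsaturated chains stood close together in both groups. The isomerase genes Eci1 and Eci2 had log2 fold changes of 0.13 ± 0.13 and -0.15 ± 0.13, and the dienoyl-CoA reductase genes Decr1 (mitochondrial) and Decr2 (peroxisomal) -0.11 ± 0.12 and -0.16 ± 0.12. Adjusted p lay between 0.315 and 0.48. The 95% interval of Decr1 ran from -0.37 to 0.15 and that of Eci1 from -0.16 to 0.42 on the log2 scale, and the signs of all 5 uncalled genes turned under at least 1 other scaling or length correction. Under TPM, where 46.1% of all genes were lower, Acaa2 (adjusted p = 0.0155), Eci2 (0.0334), Decr1 (0.046) and Decr2 (0.028) passed as lower, and Acaa2 did so after quantile normalization too (0.00767).

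Both genes of ketone body metabolism in the set fell, where 30.3% of all genes tested did. Bdh1, which interconverts acetoacetate and beta-hydroxybutyrate (chr16:31422280-31458901), had 82.4, 74.05 and 84.4 FPKM in DDK livers, against 157, 163 and 146 FPKM in vehicle livers, a separation far wider than the spread within either group (log2 fold change -0.94 ± 0.12, adjusted p = 0.00095). Acat1, the mitochondrial acetoacetyl-CoA thiolase that serves ketone body and isoleucine metabolism (chr9:53580522-53610382), had 118, 125 and 138 FPKM in DDK livers, against 206, 235 and 241 FPKM in vehicle livers (log2 fold change -0.83 ± 0.13, adjusted p = 0.00184). After median-ratio scaling the log2 fold changes were -0.64 and -0.52, still past the threshold. Ketone bodies themselves were not measured here.

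In the peroxisomal group 6 of 7 genes fell (85.7%) and 0 rose, against 30.3% and 10.2% of all genes tested. The peroxisomal genes Crot, Decr2, Acot3 and Acot4 are counted in other groups, and of these only Crot fell. Scp2, whose locus encodes a branched-chain thiolase and a sterol carrier protein from separate promoters (chr4:108043839-108144998), had 868, 834 and 877 FPKM in DDK livers, against 1387, 2099.8 and 1838 FPKM in vehicle livers, and fell (log2 fold change -1.02 ± 0.17, adjusted p = 0.00258). The pseudogene Scp2-ps2 shares 32.2% of the 100-base stretches of its transcript. Hsd17b4, the D-bifunctional protein, had 172, 174 and 204 FPKM in DDK livers, against 273, 327 and 313 FPKM in vehicle livers (log2 fold change -0.73 ± 0.13, adjusted p = 0.0036). Ehhadh, the L-bifunctional protein and a PPARA target in mouse, had 189.8, 196 and 244 FPKM in DDK livers, against 352, 234 and 412 FPKM in vehicle livers. DDK replicate 3 stood above vehicle replicate 2 for Ehhadh, so the groups overlapped, and its call was near the threshold (log2 fold change -0.63 ± 0.21, adjusted p = 0.0353). It ended after median-ratio scaling (adjusted p = 0.296) and length correction (0.195), without a filter (0.1), without the 20 most abundant genes (0.102) and without DDK liver 1 (0.108) or 2 (0.115), or vehicle liver 1 (0.0736) or 3 (0.141).

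Abcd3, a transporter of acyl-CoA into peroxisomes, had 121, 109 and 124 FPKM in DDK livers, against 161, 238 and 189.7 FPKM in vehicle livers (log2 fold change -0.72 ± 0.16, adjusted p = 0.00713). Pex11a, which promotes peroxisome proliferation (chr7:79735957-79743131), had 66.2, 64.3 and 68.7 FPKM in DDK livers, against 152, 108 and 115 FPKM in vehicle livers, with an SD of 2.21 FPKM among DDK livers (log2 fold change -0.89 ± 0.15, adjusted p = 0.00248). After median-ratio scaling Pex11a and Scp2 still passed, while Hsd17b4 (adjusted p = 0.0571), Abcd3 (0.077) and Acaa1b (0.0985) did not.

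The 2 peroxisomal thiolase genes, Acaa1a and Acaa1b on chromosome 9, stood apart from each other. Acaa1b (chr9:119148023-119157093) had 1291, 1214 and 991 FPKM in DDK livers, against 2252, 1789.5 and 2108 FPKM in vehicle livers, the highest level of any gene in the set, and fell (log2 fold change -0.82 ± 0.16, adjusted p = 0.00519). Acaa1a (chr9:119339676-119350299) had 220.4, 208 and 164 FPKM in DDK livers, against 261, 201 and 245 FPKM in vehicle livers, which overlapped (log2 fold change -0.26 ± 0.16, adjusted p = 0.212), and it passed as lower under TPM (0.0164). Acaa1b over Acaa1a was 5.86, 5.85 and 6.04 in DDK livers, against 8.64, 8.90 and 8.61 in vehicle livers, with SDs of 0.106 and 0.162 (two-sided exact permutation p = 0.1, the smallest possible). Summed, the copies stood at 1363 ± 185 FPKM in DDK livers and 2286 ± 268 FPKM in vehicle livers (log2 fold change -0.75 ± 0.17, adjusted p = 0.00779).

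How well short fragments can be assigned depends on where the copies differ. Their coding sequences, 1275 bases each, are 96.5% identical and differ at 44 bases, and 21.7% of the 100-base stretches of the Acaa1a transcript occur in Acaa1b. The stretch of 90 coding bases with the most differences is shown, bases 460 to 549 from the start codon in GENCODE M21, with the differing bases in capitals.
Acaa1a: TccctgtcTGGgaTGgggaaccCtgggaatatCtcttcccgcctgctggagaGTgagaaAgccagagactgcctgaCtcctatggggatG
Acaa1b: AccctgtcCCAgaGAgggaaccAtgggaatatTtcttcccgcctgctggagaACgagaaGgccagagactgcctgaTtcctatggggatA
It holds 13 differences, and a fragment that covers it belongs to 1 copy only. The deposited values do not say how fragments from identical stretches were divided.

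**Figure D4:**
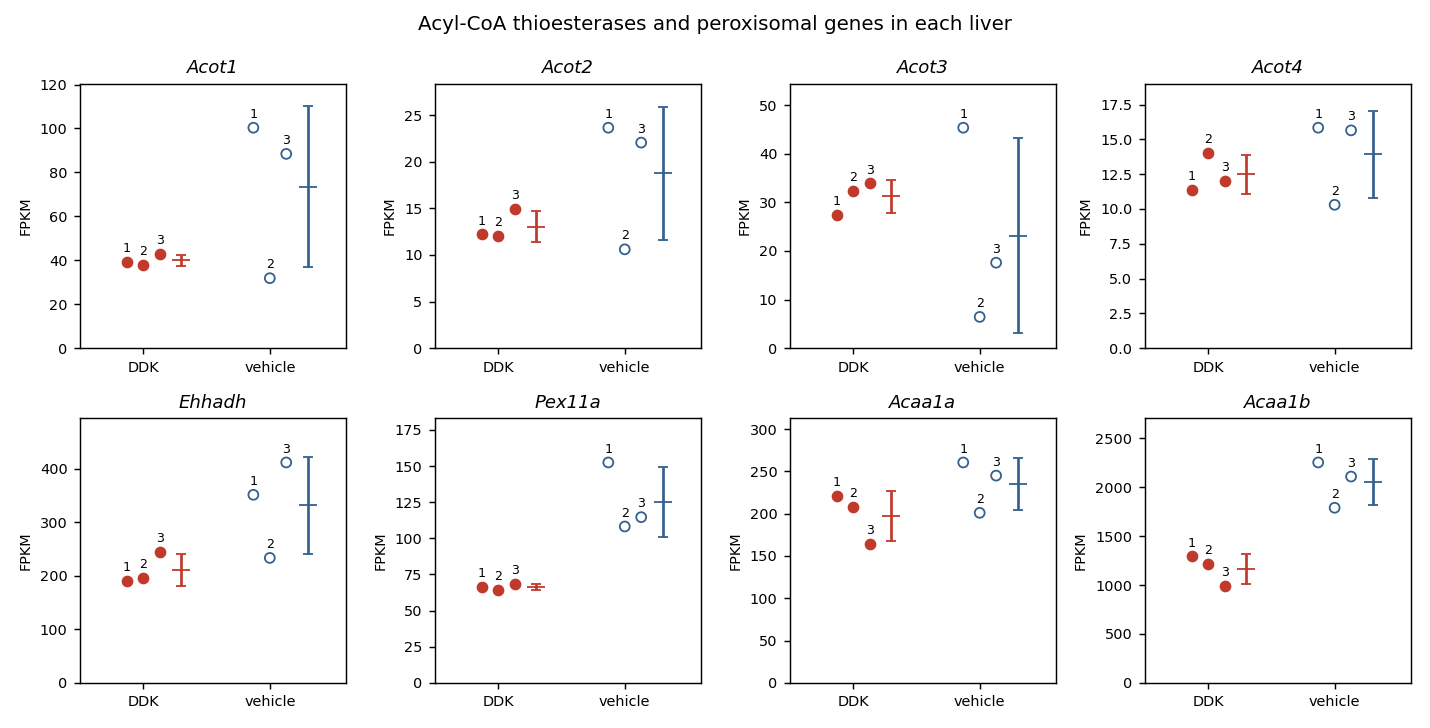
FPKM in each liver for the 4 thioesterase genes and for Ehhadh, Pex11a, Acaa1a and Acaa1b, with replicate numbers above the points and the mean ± SD of 3 livers beside them. The 4 thioesterase genes have a wide spread among vehicle livers, where replicate 2 is the lowest, and a narrow one among DDK livers.

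None of the 4 acyl-CoA thioesterase genes passed the test by limma, and their unadjusted p lay between 0.0702 and 0.488. Acot3 passed as higher with library weights (adjusted p = 0.0157), and Acot1 as lower under TPM (0.0377) and with the replicate block (0.0484). They hydrolyse acyl-CoA to free fatty acid, Acot1 in the cytosol, Acot2 in mitochondria and Acot3 and Acot4 in peroxisomes, and lie in a cluster on chromosome 12 between 83987861 and 84060402. Acot1 had 39.1, 37.8 and 42.9 FPKM in DDK livers, against 100.3, 31.8 and 88.4 FPKM in vehicle livers. Acot2 had 12.2, 12.02 and 14.9 FPKM in DDK livers, against 23.7, 10.6 and 22.1 FPKM in vehicle livers. For both, vehicle replicates 1 and 3 stood above and vehicle replicate 2 below every DDK liver. Acot3 had 27.5, 32.3 and 33.9 FPKM in DDK livers, against 45.4, 6.42 and 17.6 FPKM in vehicle livers. Acot4 had 11.4, 14.1 and 12.04 FPKM in DDK livers, against 15.8, 10.3 and 15.7 FPKM in vehicle livers. In each of the 4 genes vehicle replicate 2 was the lowest of all 6 livers.

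The log2 fold changes of the thioesterase genes were -0.71 ± 0.35 for Acot1, -0.42 ± 0.26 for Acot2, 0.79 ± 0.50 for Acot3 and -0.13 ± 0.18 for Acot4, with adjusted p of 0.126, 0.208, 0.226 and 0.583. Single vehicle livers decided the values of Acot1, Acot2 and Acot3, while Acot4 did not pass with any 1 library left out (-0.32 to -0.03). Without vehicle replicate 2, Acot1 stood at -1.22 (adjusted p = 0.00141) and Acot2 at -0.77 (0.00967), both lower. Without vehicle replicate 1, Acot3 stood at 1.45 (0.00894), higher in DDK livers, and without vehicle replicate 2 at 0.13 (0.778). Acot3 had 571 fragments in its lowest library and 4262 in its highest, a spread far beyond counting error.

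Acot1 and Acot2 are close copies, and their summed level was 53.00 ± 4.24 FPKM in DDK livers and 92.3 ± 43.7 FPKM in vehicle livers (log2 fold change -0.65 ± 0.33, adjusted p = 0.136). Their aligned coding sequences are 95.5% identical over 1239 bases, and Acot2 has the longer coding sequence, 1362 bases against 1260. The 90 aligned coding bases with the most differences are shown, which start at base 797 of Acot1 and base 920 of Acot2, with differing bases in capitals.
Acot1: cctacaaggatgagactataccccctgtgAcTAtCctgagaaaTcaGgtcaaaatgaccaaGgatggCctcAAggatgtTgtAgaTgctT
Acot2: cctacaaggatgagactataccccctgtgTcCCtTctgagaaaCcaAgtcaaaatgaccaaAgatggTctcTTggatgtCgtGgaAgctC
The window holds 14 differences, and 16.5% of the 100-base stretches of the Acot1 transcript occur in Acot2.

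Vnn1 and Creb3l3 are tied to PPARA rather than being oxidation enzymes. Vnn1, the pantetheinase vanin and a PPARA target in mouse liver, had 104, 91.1 and 89.1 FPKM in DDK livers, against 128, 117 and 126 FPKM in vehicle livers, and fell slightly (log2 fold change -0.38 ± 0.12, adjusted p = 0.0327). That call ended after median-ratio scaling (adjusted p = 0.732), length correction (0.264) and removal of the 20 most abundant genes (0.169), and without DDK liver 1 (0.0526), 2 (0.118) or 3 (0.0823), or vehicle liver 2 (0.0566) or 3 (0.105). Creb3l3, a liver transcription factor of fasting and triglyceride metabolism, had 122, 122 and 125 FPKM in DDK livers, against 121, 149 and 171 FPKM in vehicle livers, with DDK livers nearly equal and vehicle replicate 1 just below them (log2 fold change -0.24 ± 0.14, adjusted p = 0.194). It passed as lower without vehicle replicate 1 (0.0241), under TPM (0.0323) and with library weights (0.0241).

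PPARA with its partner RXRA binds direct repeats of AGGTCA with 1 base between them. RefSeq promoter windows matched 30 of the 36 genes (34 windows), and 0 of these 30 genes held the exact repeat on either strand, against 0.048% of all genes. With up to 2 mismatches it was found for Acot4, Creb3l3 and Etfa, 3 of the 30 genes, against 4.40% of all genes, and for 0 of the 17 with a window that fell. At such low shares over all genes, 0 of 30 and 0 of 17 cannot set these genes apart from others. GGGCGG was found for 66.7% of the genes and 38.2% of all genes, and for 13 of those 17. CCAAT was found for 53.3% and 41.1%. A match is a run of letters in a 300-base window and says nothing of binding, and distal elements lie outside it.

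Other genes around the pathway, from lists kept apart from the 36, moved in a mixed way, and the shares called are to be read against the 30.3% of all genes tested that fell and the 10.2% that rose. Of 14 genes of fatty acid uptake and activation, 7 fell (50%) and 1 rose, with a median log2 fold change of -0.57. Cd36, a fatty acid uptake receptor, averaged 24.9 ± 1.14 FPKM in DDK livers and 78.5 ± 17.1 FPKM in vehicle livers (log2 fold change -1.60 ± 0.16, adjusted p = 0.000508), and the acyl-CoA synthetase and transporter gene Slc27a4 fell by 0.81. Of 5 tested genes of carnitine-dependent entry 1 fell, Acacb (log2 fold change -1.52 ± 0.14, adjusted p = 0.000277), which makes the malonyl-CoA that inhibits CPT1. Of 14 other genes of mitochondrial oxidation, 7 fell (50%) and 2 rose, among them Acot9 (-1.19), Acad12 (-1.81) and Pccb (-0.83), a subunit of propionyl-CoA carboxylase. Of 7 other ketone body genes, 6 fell (85.7%) and 1 rose. The riser was Bdh2, a cytosolic dehydrogenase, at 10.5 ± 0.851 FPKM in DDK livers and 5.55 ± 0.742 FPKM in vehicle livers (log2 fold change 0.82 ± 0.14, adjusted p = 0.00299), and the acetoacetyl-CoA synthetase gene Aacs fell by 1.49.

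Of 19 tested genes of other peroxisomal oxidation, 5 fell (26.3%) and 2 rose, with a median of -0.28, close to the -0.23 of all genes. Amacr, the racemase of branched chains, fell by 0.56 (adjusted p = 0.00864) and Acox3, a branched-chain oxidase, by 0.71 (0.00986). Of 18 genes listed as peroxins or related membrane proteins, 7 fell (38.9%) and 1 rose. The clearest were the import receptor Pex7 (-0.70), Pex19 (-0.66) and Mpv17 (-0.67), whose protein lies in the mitochondrial inner membrane. Of 18 regulators 6 fell (33.3%) and 1 rose, a share lower near that of all genes tested (30.3%). Ppara itself had 21.4, 20.3 and 20.3 FPKM in DDK livers, against 26.3, 40.6 and 43.8 FPKM in vehicle livers (log2 fold change -0.78 ± 0.18, adjusted p = 0.00946). The hormone gene Fgf21, a PPARA target in liver, had 5.03, 2.11 and 13.2 FPKM in DDK livers, against 36.8, 16.4 and 28.5 FPKM in vehicle livers (log2 fold change -2.06 ± 0.47, adjusted p = 0.00842), and Nrbf2 fell by 1.44. Among 33 tested PPARA targets outside the set, 12 fell (36.4%) and 3 rose (9.09%), both near the 30.3% and 10.2% of all genes tested, with a median of -0.32.

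Livers of a group were not alike. Of the 23 genes that rose or fell, vehicle replicate 1 was the vehicle liver nearest to the DDK mean in 16, vehicle replicate 2 in 6 and vehicle replicate 3 in 1. Among DDK livers, replicate 3 was the highest of its group in 23 of the 36 genes. Neither count was made over all genes tested. On the first principal component of all genes tested (75% of the variance), vehicle livers 1 to 3 stood at 14.1, 36.2 and 40. DDK livers stood at -36.4 to -23.6, so vehicle replicate 1 was nearest to DDK there too. Leaving out 1 library at a time left 17 to 21 of the 36 genes lower and 1 to 3 higher. The share lower was 47.2% to 58.3% of the 36, against 16.5% to 39.6% of all genes tested in the same fits. Of all genes tested, 599 to 1351 were higher in those fits.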

How the data were processed

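RNA from frozen livers was made into libraries with the NEBNext Ultra RNA kit, per the labels' protocols, from 1.3 μg of total RNA. The authors deposited 1 table of FPKM for 22173 gene symbols on GRCm38 (mm10), per the submitters' processing notes. No aligner, counter or rule for fragments that match several genes is named in the sources used here. The deposited FPKM values were whole multiples of what 1 fragment is worth, 100.0% of them within 0.01, and gave back whole fragments, library totals and gene lengths.

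Values were tested as log2(FPKM + 1) with limma 3.58.1 (R 4.3.3; empirical Bayes with a variance trend) over the 10681 genes at 0.5 FPKM or more in at least 3 libraries, with DDK against vehicle, n = 3 each, and Benjamini-Hochberg adjustment. A fold change on this scale understates that of low genes. Labels number the mice 1 to 3 in each group. SEs and p-values cover only differences between these livers, with the spread of each gene moderated toward that of other genes. The fit was tested on simulated data. Median-ratio scaling divides libraries by the median ratio to their geometric mean. Length correction takes each gene's log2 value minus its mean over the libraries. In each library a lowess curve (span 0.3) of this difference on log2 gene length is subtracted. Other settings were TPM, quantile normalization, pseudocounts of 0.1 and 0.5, other filters, leaving out each library, library weights and voom on the recovered fragments. Gene coordinates are from GENCODE M21 and promoters from RefSeq, both on GRCm38; shared stretches are 100-base runs of a gene's main transcript found in transcripts of another gene.

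The genes, lists and tests were chosen with earlier results of these data known. All 36 genes are named, and the text gives per-liver values for all but Acaa2, Eci1, Eci2, Decr1 and Decr2, which did not pass. From each other list at most the 3 genes of smallest p are named. The ratios, and the genes in the observations, were chosen after their values were seen.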

Additional observations from a re-analysis of the deposited data

How the results depend on the processing

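In all, 4327 genes passed the threshold, 2033 at an adjusted p under 0.01, 4239 by voom on the recovered fragments, and 2345 to 5478 with 1 library left out. Of these 4327, 1093 were higher and 3234 lower in DDK livers, against 1886 and 1743 after quantile normalization, 1963 and 1650 after median-ratio scaling, 1722 and 1844 after length correction, 1432 and 2373 without the 20 most abundant genes, 1571 and 4697 with library weights and 631 and 4929 under TPM. Of the 36 pathway genes, the count that rose was 2, and was 1 under TPM, 1 at an adjusted p under 0.01, 3 with library weights and 1 to 3 with 1 library left out. The count that fell was 21, and was 12 after median-ratio scaling and 17 to 21 with 1 library left out. Of all genes tested, the share that fell in those fits was 30.3%, 15.4% and 16.5% to 39.6%. No gene that rose or fell changed sign under any of these settings. Genes that did not pass and changed sign after median-ratio scaling were Acadvl (0.0503), Eci2 (0.15), Decr1 (0.20), Decr2 (0.15), Etfa (0.15), Acaa1a (0.0538), Acaa2 (0.13), Acot4 (0.16) and Creb3l3 (0.0648). After length correction they were Eci1 (-0.0352), Eci2 (0.12), Decr1 (0.16), Decr2 (0.00563), Etfa (0.12) and Acot4 (0.17). After quantile normalization they were Eci1 (-0.17) and Acot4 (0.12), under TPM Eci1 (-0.11), and without the 20 most abundant genes Decr1 (0.0339) and Acot4 (0.00440). Summed Acaa1a and Acaa1b stood at -0.44 after median-ratio scaling (adjusted p = 0.153) and -0.84 to -0.63 with 1 library left out. Summed Acot1 and Acot2 stood at -0.89 under TPM (0.0387) and -1.13 to -0.37 with 1 library left out. Summed Acot3 and Acot4 stood at 0.41 as deposited, 0.70 with library weights (0.0436) and -0.0497 to 0.86 with 1 library left out. The cause of these shifts was not tested.

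The labels do not say that equal numbers share a cage, batch or day, so the numbers were not taken as pairs. Deviations from the group mean correlated at 0.141, -0.146 and 0.0558 for livers numbered 1, 2 and 3. With 3 livers in a group, whose deviations sum to 0, such correlations cannot decide whether livers were paired. With the replicate block, 4134 genes passed, 1052 higher and 3082 lower (28.9% of all genes tested). Of the pathway genes 2 rose and 22 fell (61.1%), the added one being Acot1 (adjusted p = 0.0484).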

Other observations

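Vehicle replicate 2 stood low for a group of PPARA targets beyond the thioesterase genes. Among the 10681 genes tested it was the lowest of the vehicle livers in 29.4%, and among 33 PPARA targets outside the set in 20 of 33, or 60.6%. Of the 36 pathway genes it was the lowest vehicle liver in 16, among them Acot1, Acot2, Acot3, Acot4, Ehhadh, Acaa1a, Acaa1b, Pex11a and Crat. Vehicle replicate 1 was the lowest in 53.2% of all genes tested, in 17 of the 36 and in 9 of the 33.

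The following genes were picked after their values were seen. Cyp4a14, a fatty acid omega-hydroxylase, had 183, 266 and 274 FPKM in DDK livers, against 435, 97.01 and 387 FPKM in vehicle livers. Pdk4, the kinase that shuts down pyruvate dehydrogenase, had 13.5, 14.7 and 13.6 FPKM in DDK livers, against 22.03, 5.97 and 18.7 FPKM in vehicle livers. Angptl4, an inhibitor of lipoprotein lipase, had 132, 137 and 165 FPKM in DDK livers, against 132, 74.9 and 123 FPKM in vehicle livers. In all 3 of these genes vehicle replicate 2 was the lowest of the 6 livers, and none passed the test (adjusted p by limma 0.88, 0.966 and 0.122). The cause of the difference between vehicle livers was not tested.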
